A study of Mus musculus with 4 samples.

Results

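Sox17, Foxa1, Nkx2-3, Trh, Pyy and Cpm are 6 genes used as markers of definitive endoderm and of the foregut that forms from it. They were taken by symbol from the 39179 Ensembl genes of each count file, and all 6 were found. Their RNA was measured in 4 individual chimeric mouse embryos of stage E7.75, which had been collected at E8.5 and lagged in development. In 2 embryos the injected embryonic stem cells (ESCs) carried FLAG-Lhx1, a tagged form of the LIM homeodomain factor LHX1. In the other 2 they carried FLAG-Lhx1-mt, an altered form that the labels also mark with a deletion sign, without saying what was deleted. All 4 embryos shared the rest of the design: ESCs kept in 2i medium, injection into 8-cell hosts of an ARC x RLZRFP cross, and 2 mg/mL doxycycline with 5% sucrose in the mothers' water for 24 hours. No embryo without doxycycline was analysed here. Host cells remain in such chimeras, and their share in each embryo is not given. Total read counts were 21267116 to 30434442 per embryo, and no pair of libraries matched within sampling noise.

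Definitive endoderm arises when epiblast cells pass through the anterior primitive streak under strong NODAL signalling, which acts through EOMES, MIXL1 and the forkhead factors. Its cells then enter the outer layer of the embryo, where they mix with and largely displace the visceral endoderm, an extraembryonic layer that expresses many of the same genes. The foregut is the anterior fold of this sheet and later forms pharynx, thyroid, lung, liver and pancreas. Injected ESCs are known to form mainly the tissues of the embryo proper, while the visceral endoderm of such chimeras comes largely from the host.

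The 6 genes went different ways. Trh was 3.15-fold lower and Cpm 2.50-fold higher in FLAG-Lhx1 than in FLAG-Lhx1-mt embryos, and both passed the test. Sox17 and Foxa1, the transcription factors that are present at readable levels, were not called. Pyy and Nkx2-3, the genes most closely tied to the foregut, were at the edge of detection in all 4 embryos. Of the 4 genes with enough counts to test, 1 was called higher and 1 lower. Among all 15822 tested genes, 2.62% were called higher and 3.55% lower, or 6.17% in either direction (edgeR quasi-likelihood test, Benjamini-Hochberg adjusted p under 0.05). With upper-quartile scaling the calls over all genes split into 472 higher and 395 lower, against 415 and 561 here. The 2 embryos of each group did not overlap in CPM, the count scaled to library size by edgeR's TMM method, for any of the 6 genes, but 52.2% of all tested genes also had no overlap.

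**Figure D1:**
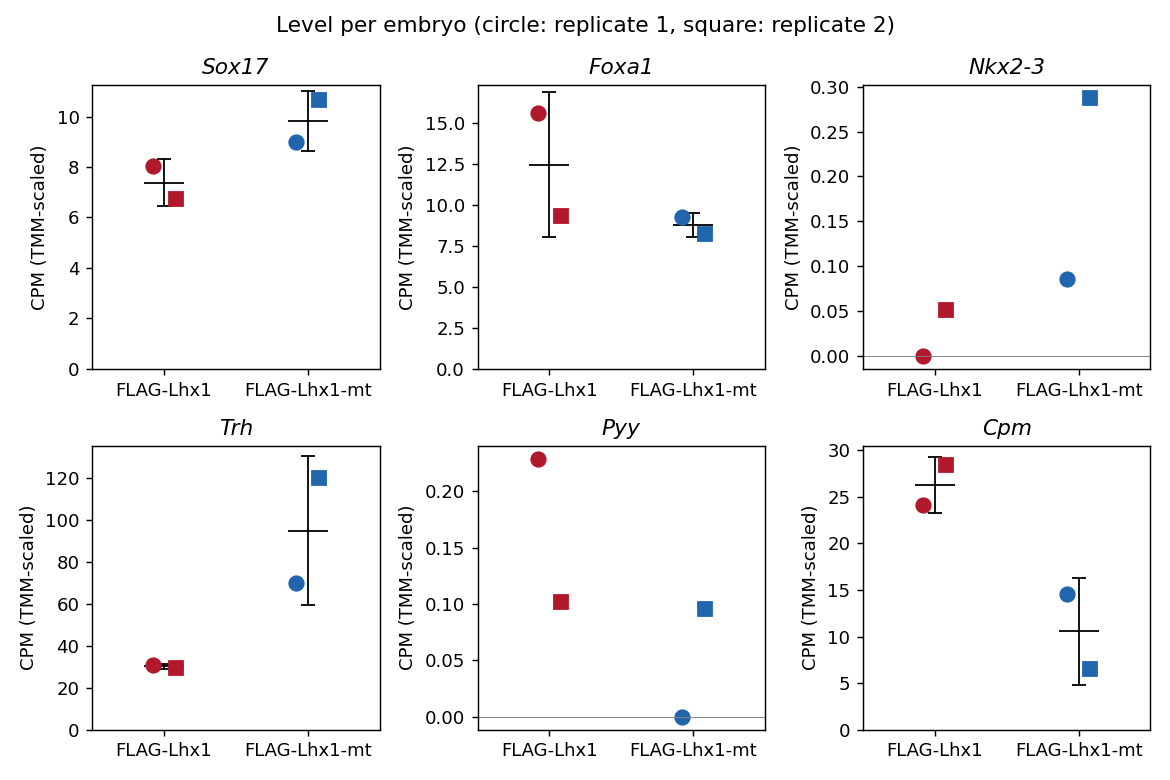
Library-scaled counts (CPM, TMM) of the 6 genes in each embryo, with 1 panel and 1 linear axis per gene. Black bars are the mean and SD of 2 embryos, drawn for the 4 tested genes. Trh lies at 69.8 and 119.9 CPM in FLAG-Lhx1-mt against 29.3 and 31.0 in FLAG-Lhx1, Cpm runs the other way, and Nkx2-3 and Pyy stay under 0.3 CPM.

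Set per kilobase of transcript, so that genes can be compared with each other, Trh was by far the most abundant of the 6. Its level averaged 45.2 CPM per kilobase over the 4 embryos. Cpm followed with 3.54, Foxa1 with 3.32 and Sox17 with 2.65 CPM per kilobase. The ranges of these 3 over the embryos overlapped, with 1.25 to 5.46 for Cpm, 2.58 to 4.88 for Foxa1 and 2.07 to 3.29 for Sox17, so their order cannot be read from the 4 embryos together. Pyy averaged 0.192 and Nkx2-3 0.0502 CPM per kilobase. In both FLAG-Lhx1 embryos Sox17 was below Foxa1 and Cpm. FLAG-Lhx1-mt replicate 1 also had Sox17 below both, at 2.77 against 2.91 for Foxa1 and 2.81 CPM per kilobase for Cpm. Only in FLAG-Lhx1-mt replicate 2 was Sox17 above both, at 3.29 against 2.58 and 1.25 CPM per kilobase.

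Trh encodes the precursor of thyrotropin-releasing hormone, a tripeptide amide best known from the hypothalamus; in the mouse gastrula the gene is known as an early marker of definitive endoderm. It lies on chromosome 6 at 92242061 to 92244650 of GRCm38, on the minus strand (ENSMUSG00000005892). The precursor holds several copies of the hormone, each coded by CAG, a histidine codon, a proline codon and a glycine codon between pairs of basic codons. The only Trh transcript of GENCODE vM21 has a coding sequence of 771 bases with 5 such units, shown because a single mRNA of this gene codes for 5 hormone copies. Capitals mark the 4 codons of the hormone and its amide donor, and lower case the basic codons on each side.
unit 1: aaacgcCAGCATCCGGGCaaaagg
unit 2: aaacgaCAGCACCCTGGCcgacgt
unit 3: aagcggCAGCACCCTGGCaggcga
unit 4: aagaggCAGCATCCAGGCcggagg
unit 5: aaacgtCAGCATCCTGGCaaaagg

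The counts of Trh were 812 and 575 in FLAG-Lhx1 replicates 1 and 2, and 1626 and 3752 in FLAG-Lhx1-mt replicates 1 and 2. In CPM these were 31.0 and 29.3 against 69.8 and 119.9. The FLAG-Lhx1 embryos were close to each other, within 1.06-fold, while the FLAG-Lhx1-mt embryos differed by 1.72-fold, and the lowest FLAG-Lhx1-mt embryo was still above both FLAG-Lhx1 embryos. The means were 30.1 ± 1.23 and 94.9 ± 35.4 CPM (SD, n = 2 each). The log2 fold was -1.66 ± 0.21 (SE; 95% interval -2.10 to -1.21; edgeR adjusted p = 0.00033), and Trh ranked 40th of 15822 genes by p-value. Its log2 fold stayed between -2.0 and -1.23 with each embryo left out in turn, and the call was kept each time. Among the genes called lower, 79 had a log2 fold as low as that of Trh or lower.

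Trh was also lower relative to some, but not all, other endoderm genes of the same embryo. The ratio of Trh to Sox17 CPM was 3.85 and 4.36 in FLAG-Lhx1 against 7.78 and 11.2 in FLAG-Lhx1-mt. The ratio of Trh to Foxa2 CPM was 1.46 and 1.93 against 5.38 and 8.63, again without overlap. Relative to Eomes it ran the other way, at 2.34 and 3.14 against 1.62 and 0.784, and Eomes had the lower log2 fold (-3.12). The ratio of Trh to Mixl1 CPM did so too, at 4.95 and 1.32 in FLAG-Lhx1 against 0.432 and 0.609 in FLAG-Lhx1-mt. No test was made of these ratios. In whole embryos, fewer cells that express a gene and less RNA of it per cell cannot be told apart.

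Genes that make and read the hormone were mostly not called. PAM, the enzyme that turns the glycine into the amide, was the exception: Pam was at 37.0 and 39.5 CPM in FLAG-Lhx1 and 17.1 and 15.6 CPM in FLAG-Lhx1-mt, a rise of 1.23 ± 0.18 on the log2 scale (SE, edgeR adjusted p = 0.000968). Its direction is opposite to that of Trh. Of 16 genes for processing, receptors and relatives of TRH and PYY, 9 were tested and Pam was the only call, with a median log2 fold of 0.09 against 0.01 for all tested genes. The share called in either direction over all tested genes was 6.17%. The convertase genes Pcsk1, Pcsk2 and Furin had log2 folds of 0.18, 0.09 and -0.10, the amino-terminal cyclase gene Qpct 0.16 and the carboxypeptidase gene Cpe 0.09. Npy1r and Npy5r, receptors of the PYY family, had 0.07 and 0.09. Dpp4, whose enzyme trims PYY, was at 33.5 and 35.8 CPM against 61.3 and 39.4 CPM and missed the threshold (log2 fold -0.54 ± 0.20, SE, edgeR adjusted p = 0.121). It was called with no count filter (-0.60), when FLAG-Lhx1-mt replicate 2 was omitted (-0.84), and with offsets for transcript length and GC content, alone (-0.77) or with the replicate number as a block (-0.74), so that 2 genes of the list were called in each of these settings. The TRH receptor genes Trhr and Trhr2 had at most 11 and 12 counts in an embryo and were not tested. Trhde, which encodes an enzyme that degrades TRH, had 1, 23, 3 and 11 counts and was not tested either.

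Cpm encodes carboxypeptidase M, a membrane-anchored enzyme that removes basic residues from the carboxy end of peptides; its human form is used as a surface marker of lung progenitors made from foregut endoderm. The gene lies on chromosome 10 at 117629500 to 117687352, on the plus strand (ENSMUSG00000020183). It had 632 and 558 counts in FLAG-Lhx1 against 340 and 204 in FLAG-Lhx1-mt. In CPM these were 24.1 and 28.4 against 14.6 and 6.52. Both FLAG-Lhx1 embryos were above both FLAG-Lhx1-mt embryos, and the latter differed from each other by 2.24-fold. The means were 26.3 ± 3.02 and 10.6 ± 5.72 CPM (SD, n = 2 each). The log2 fold was 1.32 ± 0.29 (SE; 95% interval 0.71 to 1.94; edgeR adjusted p = 0.0143), and Cpm ranked 369th by p-value. Its size depended on the FLAG-Lhx1-mt embryo used: omitting FLAG-Lhx1-mt replicate 1 gave 2.0 and omitting replicate 2 gave 0.83, called in both cases.

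The other genes of the basic carboxypeptidase family were not called with it. Of the 8 genes of this family on the list, 7 were tested and Cpm was the only call. Among all tested genes 6.17% were called in either direction, so few calls are expected in a list of this size. Cpd was at 31.1 and 23.6 CPM in FLAG-Lhx1 and 23.1 and 20.99 CPM in FLAG-Lhx1-mt (log2 fold 0.31 ± 0.19, SE, edgeR adjusted p = 0.380). Cpn1, the catalytic subunit gene of the plasma enzyme, had a log2 fold of -0.47, and Cpe, Cpxm1, Cpxm2 and Aebp1 had 0.09, 0.31, 0.31 and 0.19. Cpz stayed under the count filter with at most 10 counts. Whether the change of Cpm differs from theirs was not tested.

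Sox17 encodes an HMG-box factor that mouse embryos need to form definitive endoderm, and which is also made in visceral and parietal endoderm and in endothelium. It lies on chromosome 1 at 4490931 to 4497354, on the minus strand (ENSMUSG00000025902). An annotated gene on the other strand covers 16.8% of its exon bases. Whether counting used strand is not stated, so how reads from these bases were counted is not known. The counts of Sox17 were 211 and 132 in FLAG-Lhx1, and 209 and 334 in the other group. In CPM these were 8.05 and 6.72 against 8.98 and 10.7, a narrow step between groups that were each within 1.20-fold. The means were 7.38 ± 0.945 and 9.82 ± 1.20 CPM (SD, n = 2 each). The log2 fold of -0.41 ± 0.25 was not called (SE, edgeR adjusted p = 0.373). Its 95% interval of -0.94 to 0.12 leaves room for a level in FLAG-Lhx1 as low as 0.520 times or as high as 1.09 times that of FLAG-Lhx1-mt.

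The close relatives of Sox17 gave no call with all 4 embryos. Sox7, a SOXF gene of parietal endoderm and endothelium, was at 2.18 and 2.85 CPM against 0.773 and 1.92 CPM (log2 fold 0.87 ± 0.48, SE, edgeR adjusted p = 0.320). It was called without FLAG-Lhx1-mt replicate 2 (1.67). Sox18, the endothelial member, had 10, 8, 4 and 4 counts and was not tested. Endothelial markers were present at low summed levels, 40.6 and 42.5 CPM in FLAG-Lhx1 and 34.3 and 39.9 CPM in FLAG-Lhx1-mt over 14 genes, with Kdr, the receptor gene of endothelial progenitors, at 42.4% of that sum. None of the 9 tested endothelial genes was called by edgeR, and 2 had an unadjusted p under 0.05, but 3 of the list were called as higher without FLAG-Lhx1-mt replicate 2 (Pecam1, Tal1 and Sox7, the first 2 named after their values were seen). The median log2 fold of the 9 was 0.87, while that of Kdr was -0.15. For all tested genes the median was 0.01 and the share called in either direction 6.17%. Fli1, an ETS factor gene of blood and endothelium, had the smallest p, at 2.33 and 2.34 CPM against 0.773 and 1.09 CPM (log2 fold 1.31 ± 0.47, SE, edgeR adjusted p = 0.112). The part of endothelium in the level of Sox17 was not tested.

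Foxa1 encodes a forkhead factor that opens chromatin at endoderm enhancers; in the mouse gastrula it is on in definitive endoderm, notochord and floor plate. It lies on chromosome 12 at 57540628 to 57546916, on the minus strand (ENSMUSG00000035451). Its counts were 408 and 183 in FLAG-Lhx1 and 216 and 258 in FLAG-Lhx1-mt. In CPM these were 15.6 and 9.31 against 9.28 and 8.24. FLAG-Lhx1 replicate 1 stood above the other 3 embryos, and FLAG-Lhx1 replicate 2 was barely above FLAG-Lhx1-mt replicate 1. The means were 12.4 ± 4.43 and 8.76 ± 0.730 CPM (SD, n = 2 each), and the log2 fold of 0.51 ± 0.27 was not called (SE, 95% interval -0.05 to 1.08, edgeR adjusted p = 0.283). Without FLAG-Lhx1 replicate 1 it was 0.06.

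The 3 FOXA genes were all tested and none was called, with 1 unadjusted p under 0.05 among them. Foxa2, which acts upstream of Foxa1 in endoderm and node, was highest in the same embryo, at 21.3 and 15.2 CPM in FLAG-Lhx1 and 12.97 and 13.9 CPM in FLAG-Lhx1-mt (log2 fold 0.44 ± 0.22, SE, edgeR adjusted p = 0.267). Foxa3, the gene of the later hindgut and liver, was at 2.90 and 1.58 CPM against 4.04 and 4.25 CPM (-0.87 ± 0.38, edgeR adjusted p = 0.192). Markers of node and notochord, where Foxa1 is also expressed, went both ways: Sox9 and the midline signal gene Shh rose and T fell. The other 4 of the 7 tested were not called, and the median log2 fold of the list was 0.44. Over all tested genes 2.62% were called higher and 3.55% lower, with a median log2 fold of 0.01. T was not called when FLAG-Lhx1 replicate 2 was omitted (-0.50), nor when FLAG-Lhx1-mt replicate 1 was (-0.33). Its call was also lost with upper-quartile scaling (-0.64) and with offsets for transcript length and GC content (-0.61). The part of these cells in the level of Foxa1 was not tested.

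**Figure D2:**
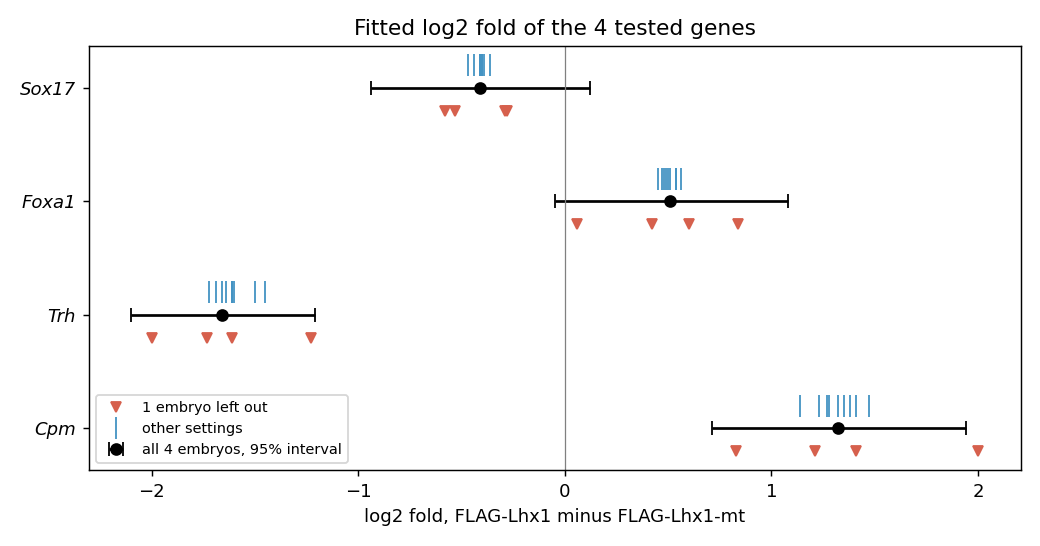
Fitted log2 fold (FLAG-Lhx1 minus FLAG-Lhx1-mt, horizontal axis) of the 4 tested genes. Black points and bars are the fit to all 4 embryos with its 95% interval, triangles are fits with 1 embryo left out and ticks are the other settings. All values of Trh lie at -1.23 or below and all values of Cpm at 0.83 or above, while the intervals of Sox17 and Foxa1 cross 0.

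Nkx2-3 encodes a homeobox factor of the pharyngeal endoderm and of the mesoderm around the gut. It lies on chromosome 19 at 43612325 to 43615892, on the plus strand (ENSMUSG00000044220). It had 0 and 1 counts in FLAG-Lhx1 and 2 and 9 in the other group, so 9 of its 12 counts came from FLAG-Lhx1-mt replicate 2. The highest level was 0.288 CPM. The summed counts of 1 and 11 give a ratio of 9.24 in favour of FLAG-Lhx1-mt with an exact 95% interval of 1.34 to 398, which covers counting error only. It stayed under the count filter, and with no filter edgeR did not call it (log2 fold -2.88 ± 1.90, SE, adjusted p = 0.629). Without FLAG-Lhx1-mt replicate 2 the counts were 1 and 2 and the ratio 3.94, with an interval of 0.205 to 232 that holds 1.

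Other NK2 genes were as scarce. Nkx2-6, another gene of the early pharynx, was the only one of the 7 with enough counts to test, at 3, 12, 15 and 26 counts (log2 fold -1.08 ± 0.79, SE, edgeR adjusted p = 0.465). Nkx2-1, the gene of thyroid and lung buds, had 11 and 4 counts in FLAG-Lhx1 and 2 and 3 in FLAG-Lhx1-mt. Nkx2-5 of the heart had 2 or 3 counts in each embryo. Nkx2-2, Nkx2-4 and Nkx2-9 had between 1 and 18.

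Pyy encodes peptide YY, a hormone of the gut that is found in the anterior endoderm of mouse embryos before the gut tube closes. It lies on chromosome 11 at 102106676 to 102107832, on the minus strand (ENSMUSG00000017311). It had 6 and 2 counts in FLAG-Lhx1 and 0 and 3 in FLAG-Lhx1-mt, and the highest level was 0.229 CPM. The raw counts of the groups overlap, and only the scaling by library size puts 2 counts in FLAG-Lhx1 replicate 2 just above 3 counts in FLAG-Lhx1-mt replicate 2. The summed counts of 8 and 3 give a ratio of 3.17 in favour of FLAG-Lhx1 with an exact 95% interval of 0.762 to 18.6. A difference was not detectable at this depth. Its relatives Npy and Ppy had 2 to 11 and 2 to 4 counts in an embryo.

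The stretch before the start site is shown for the genes that were called, Trh and Cpm, and for Foxa1, the only one with a match to a motif. RefSeq's promoter table (GRCm38.p6) had 6 windows for 5 of the 6 genes, with Pyy listed from 2 start sites. In the 250 bases before each start, both strands were searched for 8 short motifs, here each with the share of all 32851 windows that hold it. The letters TAATTA, a core of LHX1 and other homeodomain sites, were found in 4.84% of windows. The forkhead core of FOXA factors, TGTTTAC, was in 3.17%. A core of SOX sites, spelled ATTGTT, was in 9.42%, and the GATA factor core AGATAA was in 9.99%. The letters bound by OTX2, written TAATCC, were in 6.25%, and a T-box site, GGTGTGA, in 3.33%. The NKX2 core, which reads CACTTGA, was in 2.68%, and the TATA box, searched as TATAAA, in 12.4%. The windows of Trh, Cpm, Nkx2-3 and Pyy held none of these motifs in the exact letters searched, and variant spellings were not searched. That of Foxa1 held the FOXA letters, marked in capitals, 141 bases before the start, as did 3.17% of all windows. No peak or binding data were used here, so these matches describe letters only. The windows are chr6:92244651-92244900 (minus strand), chr10:117629250-117629499 (plus strand) and chr12:57546112-57546361 (minus strand), and their GC contents are 68.8%, 74.4% and 62.0%.
Trh: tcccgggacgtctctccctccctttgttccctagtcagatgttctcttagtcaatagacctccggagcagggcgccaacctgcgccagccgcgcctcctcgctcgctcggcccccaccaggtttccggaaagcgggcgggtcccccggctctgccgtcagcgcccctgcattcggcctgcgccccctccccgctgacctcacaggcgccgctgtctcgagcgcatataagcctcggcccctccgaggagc
Cpm: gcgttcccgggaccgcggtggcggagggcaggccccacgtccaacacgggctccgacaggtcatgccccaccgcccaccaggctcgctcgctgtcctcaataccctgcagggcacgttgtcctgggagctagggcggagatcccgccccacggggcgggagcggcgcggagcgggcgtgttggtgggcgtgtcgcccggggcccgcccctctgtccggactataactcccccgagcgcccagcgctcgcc
Foxa1: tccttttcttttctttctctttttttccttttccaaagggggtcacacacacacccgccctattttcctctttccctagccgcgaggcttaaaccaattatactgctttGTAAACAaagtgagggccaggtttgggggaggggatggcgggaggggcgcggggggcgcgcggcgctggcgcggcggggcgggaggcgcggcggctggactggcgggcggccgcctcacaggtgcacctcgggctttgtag

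Some upstream genes of endoderm formation were lower in FLAG-Lhx1 and others were not called. Of 17 genes on a list from NODAL to the first endoderm factors, 16 were tested: 6 fell, none rose and 10 were not called (median log2 fold -0.30, against 0.01 for all tested genes, of which 3.55% were called lower). Of the 16 log2 folds 6 were above 0, among them those of the NODAL signal carriers Smad3 (0.63), Smad4 (0.29) and Smad2 (0.05), named after their values were seen. Another was that of Lhx1 itself (0.11, not called), also named after its values were seen. Whether its reads came from the carried forms or from the endogenous gene was not tested. Tdgf1, the NODAL co-receptor gene, was at 6.03 and 3.46 CPM against 85.7 and 176 CPM, and Nodal at 1.56 and 1.22 against 6.10 and 9.20 CPM. Mixl1 and Eomes, the streak factors that open the endoderm programme, had log2 folds of -3.68 and -3.12 (edgeR adjusted p = 3.95e-05 and 0.00039). For Eomes, omitting FLAG-Lhx1-mt replicate 2 gave -1.94. Gata4, an early endoderm and heart factor, was at 7.29 and 6.51 against 13.1 and 14.8 CPM (-1.02 ± 0.24, SE, edgeR adjusted p = 0.0194), and Cer1, a secreted antagonist of the anterior endoderm, had -0.72. Neither passed when FLAG-Lhx1 replicate 2 was omitted (-0.93 and -0.45). Cer1 also missed the threshold with offsets for transcript length and GC content (-0.67). Hhex, the anterior endoderm and liver factor, had a log2 fold of -0.36 and Gata6 of 0.26, and neither was called. Hhex was called without FLAG-Lhx1-mt replicate 1 (-0.83) and had the other sign without replicate 2 (0.35), and Gata6 changed sign without FLAG-Lhx1-mt replicate 1 (-0.02).

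Epithelial genes of definitive endoderm and gut also lay mostly below 0. Of 20 genes, 19 were tested, 4 fell and none rose (median log2 fold -0.43). For all tested genes the share called lower was 3.55% and the median log2 fold 0.01. The tight junction gene Cldn6 was at 139.7 and 119 CPM against 385 and 316 CPM (-1.43 ± 0.16, SE, edgeR adjusted p = 8.14e-05), and Rab25, of apical membrane traffic, had -1.34. The chemokine receptor gene Cxcr4, used to sort definitive endoderm, was at 3.05 and 2.04 against 5.63 and 6.97 CPM (-1.30 ± 0.33, edgeR adjusted p = 0.0304). The cell adhesion gene Epcam had -0.67. Omitting FLAG-Lhx1 replicate 2 ended the calls of Cxcr4 (-1.03) and Epcam (-0.44), and omitting FLAG-Lhx1-mt replicate 2 also ended that of Epcam (-0.46). Upper-quartile scaling (-0.62) and offsets for transcript length and GC content (-0.58) ended the call of Epcam too. These genes are not specific to endoderm and are also made by epiblast or visceral endoderm.

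Genes of foregut and pharynx were evenly split by sign, with calls on the higher side. Of 20, 14 were tested: 4 rose, none fell and 10 were not called (median log2 fold 0.24, with 2.62% of all tested genes called higher). The log2 folds lay below 0 for 7 genes and above 0 for 7. The lowest, named after their values were seen apart from Nkx2-6 (-1.08), were those of Sfrp5 (-0.69), a WNT antagonist gene of the foregut, Prox1 (-0.64), of liver and pancreas buds, and Ripply3 (-0.58), of the pharynx. The genes that rose were Shh, Eya1, Sox2 and Isl1, each of which is also known from other tissues: Shh from the midline, Eya1 from placodes and mesoderm, Sox2 from neural plate and Isl1 from heart progenitors. Shh had 65 and 38 counts in FLAG-Lhx1 and 5 and 0 in FLAG-Lhx1-mt, Eya1 was at 10.0 and 8.55 CPM against 4.04 and 2.49, Sox2 at 27.6 and 19.7 against 9.84 and 13.04, and Isl1 at 20.8 and 23.0 against 11.4 and 3.99. The call of Sox2 was lost without FLAG-Lhx1 replicate 1 (0.75), and the log2 fold of Isl1 was 1.52 with all embryos, 2.45 without FLAG-Lhx1-mt replicate 1 and 0.92 without replicate 2. DESeq2 did not call Isl1 (adjusted p = 0.205), which left 3 of the list called higher. Later markers of foregut derivatives stayed low, with Pdx1, Pax1, Pax9 and Foxe1 at no more than 12 counts in an embryo. Of 10 genes of midgut and hindgut, 5 were tested and none was called by edgeR, 0 of them at an unadjusted p under 0.05. Cdx1, with the smallest p, was at 0.687 and 4.68 CPM against 1.37 and 1.82.

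Visceral endoderm, the main other source of endoderm RNA, differed between the groups in its summed markers. Its 17 markers summed to 3115 and 3598 CPM in FLAG-Lhx1 and to 5745 and 5290 CPM in FLAG-Lhx1-mt, and none of the 17 was at 0. All 17 were tested: 8 fell, 1 rose and 8 were not called (median log2 fold -0.61). Over all tested genes 3.55% were called lower and 2.62% higher, with a median log2 fold of 0.01. Apoa1 was at 420.4 and 436 CPM against 1108 and 1001 CPM, and Afp at 148 and 119 against 234 and 194 CPM, a call that was lost without FLAG-Lhx1 replicate 2 (-0.52). Apoa4 and Apom had -1.30 and -1.10, and Apoa2 was the gene that rose (0.68), a call lost without FLAG-Lhx1 replicate 2 (0.60). Exons of other genes cover 69.8% of the exon bases of Apoa4, 79.5% of those of Apoc2 and 63.5% of those of Trf, whose values are uncertain. Apoc2, an apolipoprotein gene, was among the 8 that fell (-0.67) and gave 519.7 and 601 CPM of the sums in FLAG-Lhx1 and 772 and 1014 CPM in FLAG-Lhx1-mt. Ttr missed the threshold (-0.55, edgeR adjusted p = 0.0625). It was called lower by DESeq2 (-0.58), by limma-voom (-0.56) and with no count filter (-0.61). The replicate number as a block, alone (-0.56) or with offsets for transcript length and GC content (-0.47), also gave a call. Omitting FLAG-Lhx1 replicate 2 gave -0.76 and omitting FLAG-Lhx1-mt replicate 2 gave -0.66.

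Per unit of summed visceral endoderm signal, Sox17 overlapped between the groups, at 0.00259 and 0.00187 in FLAG-Lhx1 and 0.00156 and 0.00202 in FLAG-Lhx1-mt. Trh did not, at 0.00995 and 0.00813 against 0.0122 and 0.0227. Cpm was at 0.00774 and 0.00789 against 0.00254 and 0.00123. Trh fell by more than the list's sum, 3.15-fold against a 1.64-fold difference of group means. The part of visceral endoderm in the changes of Trh and Sox17 was not tested.

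Other cell types gave smaller sums. Their calls stand beside 2.62% of all tested genes called higher and 3.55% called lower. Parietal endoderm markers summed to 323 and 303 CPM against 294 and 289 CPM over 11 genes, of which Plat rose and Srgn fell. The log2 fold of Plat was 2.11 with all embryos, 4.04 without FLAG-Lhx1-mt replicate 1 and 1.24 without replicate 2. Splanchnic and cardiopharyngeal mesoderm, the other home of Nkx2-3, summed to 64.2 and 63.3 CPM against 54.5 and 48.3 CPM over 10 genes, with Isl1 higher and Gata4 lower among 8 tested. Markers of primitive blood summed to 4.69 and 4.02 CPM against 4.04 and 8.69 CPM, and none of the 2 tested was called by edgeR, 0 of them at an unadjusted p under 0.05, though 1 of the list, Klf1, under the count filter with all 4 embryos, was called lower without FLAG-Lhx1-mt replicate 1. Runx1, a factor gene of blood formation, had the smallest p (log2 fold -0.75, edgeR adjusted p = 0.378). Trophoblast markers summed to 10.6 and 10.3 CPM against 17.7 and 15.2 CPM. None of the 4 tested was called by edgeR and 1 had an unadjusted p under 0.05. That gene, Plac1, was close to the threshold (log2 fold -0.78, edgeR adjusted p = 0.0533). It was called with DESeq2's size factors (adjusted p = 0.0494), by DESeq2 (0.0235), with no count filter (0.0278) and when FLAG-Lhx1-mt replicate 2 was omitted (0.0186).

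The genes closest in pattern to each tested gene were sought among 8600 coding genes whose mean reached 5 CPM. The measure was the root mean square difference of log2 CPM over the 4 embryos after centring each gene on its own mean. For Trh they were Nrde2 (0.0430) and Irf1 (0.122), against a median of 0.843 for all candidates. Nrde2, a gene of nuclear RNA processing, was at 17.3 and 16.3 CPM in FLAG-Lhx1 and 36.3 and 64.8 CPM in FLAG-Lhx1-mt. For Cpm they were Itih5 (0.0429) and Lhfpl2 (0.0563), and Lhfpl2 was at 40.3 and 50.6 CPM against 26.0 and 12.2 CPM. For Sox17 they were Actn4 (0.00634) and Shq1 (0.0120), and for Foxa1 Zfp991 (0.0454) and Hace1 (0.0670). With 4 embryos many genes lie close to any pattern, so this likeness is a description.

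**Figure D3:**
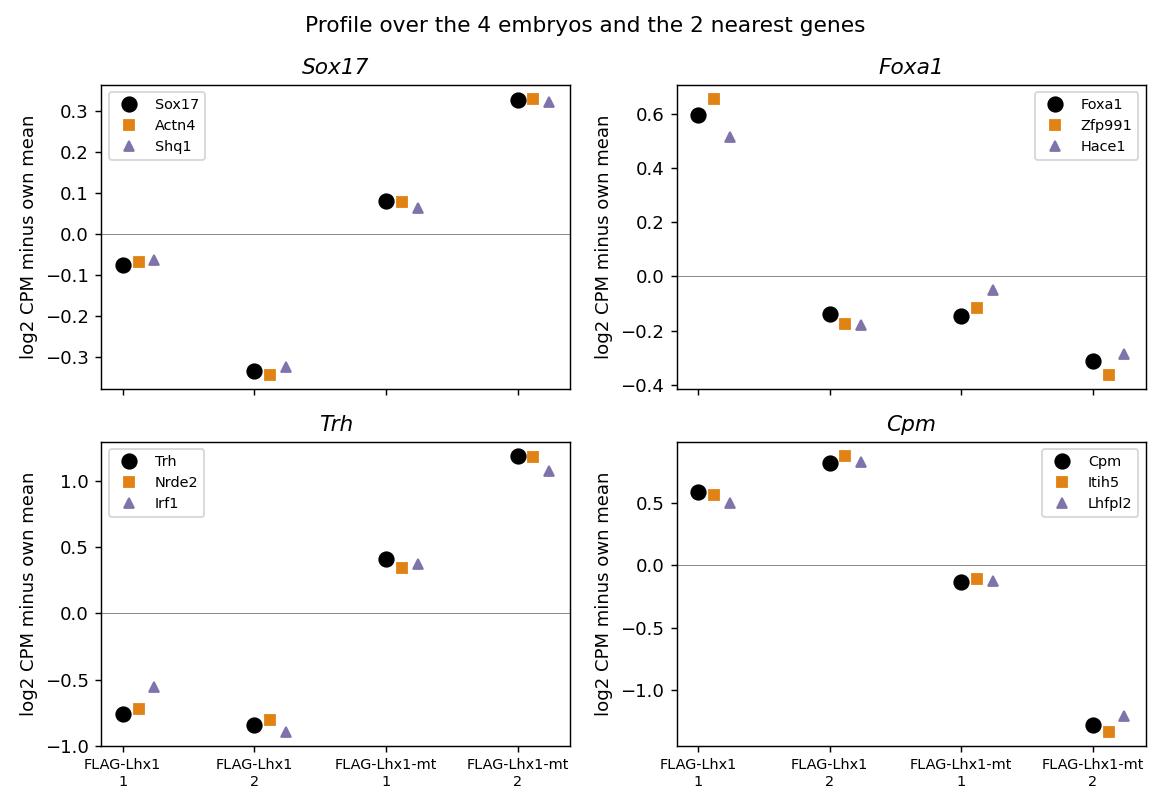
Log2 CPM minus the gene's own mean (vertical axis) in the 4 embryos for Sox17, Foxa1, Trh and Cpm (black circles) and the 2 genes nearest to each (squares and triangles). Trh is lower in both FLAG-Lhx1 embryos and highest in FLAG-Lhx1-mt replicate 2, Cpm is lowest in that embryo, and Foxa1 stands out in FLAG-Lhx1 replicate 1.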

How the data were processed

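RNA was sequenced from 4 single embryos, by the Geo-seq protocol, in which cDNA was amplified for 10 cycles and 0.5 ng of it went into each library, per the labels' protocols. The deposited files hold raw read counts per Ensembl gene; per the submitters' processing notes, STAR, featureCounts (Subread), GRCm38 and mm10 were used. Their versions, and whether counting used strand, are not stated there. The libraries hold no molecular identifiers. The exact intervals of Pyy and Nkx2-3 and the floor of 3 counts (0.0959 to 0.153 TMM-scaled CPM per embryo) cover counting error only.

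Symbols, positions and lengths came from GENCODE vM21, which matched 37693 IDs (96.2%). Genes were filtered with filterByExpr (minimum count 10, total 15), scaled by TMM and tested by quasi-likelihood in edgeR 4.0.16 under R 4.3.3, with group as the only term; p-values were adjusted over 15822 genes, and standard errors and 95% intervals derive from the test with 15.4 degrees of freedom, 13.4 of them borrowed across genes. The p-values measure only how 2 embryos of a group vary, and an exact two-sided permutation test of 1 gene cannot go below 0.333. On simulated counts for this comparison with 15822 genes, 58 of 100 genes set to a log2 fold of 1, and 84 of 100 set to 2, were called.

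Named were the 6 genes, their families and processing partners, up to 4 called genes per list by p-value (without a call, the gene of lowest p), 10 genes fixed by name (Foxa2, Hhex, Cer1, Gata4, Gata6, Eomes, Mixl1, Afp, Ttr and Kdr), and 2 genes nearest in pattern to each tested one. Pdx1, Pax1, Pax9, Foxe1, Apoc2, Trf, Klf1 and some others, marked as such, were named after their values were seen. Members and lists were chosen with earlier results of these data known. Alternatives were DESeq2 1.42.0, limma-voom (limma 3.58.1), other scalings and filters, each embryo left out, the replicate number as a block, and offsets for transcript length and GC content.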

Additional observations from a re-analysis of the deposited data

How the results depend on the processing

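The calls of Trh and Cpm, and the absence of a call for Sox17 and Foxa1, held under all 13 alternatives tried, and all 4 log2 folds kept their sign. With 1 embryo left out, Sox17 ran from -0.58 to -0.28, Foxa1 from 0.06 to 0.84, Trh from -2.0 to -1.23 and Cpm from 0.83 to 2.00; in such fits the lone embryo of a group is assumed to vary like the others. The number of called genes ran from 521 to 1648 with 1 embryo left out, against 976. The genes called lower ran from 2 to 6 of gut epithelium and from 5 to 10 of visceral endoderm in those fits; without a count filter 7 of gut epithelium were lower, and with upper-quartile scaling 5 of visceral endoderm. The causes were not tested.

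The labels state no shared litter or batch for same-numbered embryos. Deviations of same-numbered embryos correlated at 0.0156 over 15822 genes, which cannot show whether such embryos were paired. With the replicate number as a block, 1138 genes were called, Trh had -1.60 and Cpm 1.41, and with length and GC offsets added 1165 genes, -1.45 and 1.23. These offsets alone left 785 calls.

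Of 736 values of 57 other named genes under the alternatives, 676 kept sign and side of the threshold, 21 lost a call, 17 gained one and 22 changed sign, none of the latter in a called gene. With 1 embryo left out the ranges that crossed 0 were -0.83 to 0.35 for Hhex, -0.02 to 0.59 for Gata6, -1.21 to 1.51 for Cdx1, -0.21 to 0.41 for Npy1r, -0.54 to 0.68 for Npy5r, -0.21 to 0.64 for Pcsk1, -0.60 to 1.28 for Pcsk2, -0.46 to 0.17 for Furin, -0.06 to 0.41 for Qpct, -0.15 to 0.37 for Cpe, -0.22 to 0.79 for Aebp1 and -0.05 to 0.70 for Hace1. With the offsets the sign changed for Npy1r (-0.02), Pcsk1 (-0.06) and Pcsk2 (-0.06), and with offsets and the replicate block Pcsk1 (-0.05) and Hace1 (-0.04). DESeq2 did not call Isl1 or Plat (adjusted p = 0.205 and 0.327). Pyy and Nkx2-3 had 11 and 12 counts in all; with no count filter edgeR gave 1.55 ± 1.73 and -2.88 ± 1.90 (log2 fold, SE; adjusted p = 0.827 and 0.629), and DESeq2 gave 1.72 and -3.06 with no adjusted p.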
